A study of Homo sapiens with 4 samples.

Results

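The genes described here are 10 genes of the epithelial to mesenchymal transition, chosen by symbol (CDH1, CLDN7, ESRP1, VIM, FN1, CDH2, ZEB1, ZEB2, SNAI2 and TWIST1), and all 10 were found among the 33538 genes of the count matrices. They were measured by droplet single-cell RNA sequencing, in which each captured transcript is counted once by its unique molecular identifier (UMI). The cells were LNCaP, an androgen-responsive human prostate cancer line derived from a lymph node metastasis. Each of the 4 groups was 1 library: LNCaP given 0.1% DMSO vehicle for 48 hours, LNCaP given 10 µM enzalutamide (an antiandrogen drug) for 48 hours (LNCaP-ENZ48), and the enzalutamide-resistant LNCaP derivatives RES-A and RES-B, both maintained in 10 µM enzalutamide. The 2 resistant lines had been grown out under long exposure to antiandrogen agents, so long culture and drug exposure cannot be told apart in them. The study states that RES-A was raised in rising enzalutamide concentrations. RES-B was raised, for longer, in a constant concentration of another antiandrogen. Agent, dosing and duration therefore differ between the 2 lines and cannot be told apart either. With 1 library per group there was no replicate, no test was made, and every interval given is a 95% interval for counting error only.

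In the epithelial to mesenchymal transition, cells joined in a sheet by junctions take on a motile form with less cell to cell adhesion and more matrix and intermediate filament protein. E-cadherin (CDH1) and claudins hold epithelial cells together, and ESRP1 is a splicing regulator that keeps transcripts in their epithelial isoforms. Transcription factors of the ZEB, SNAI and TWIST families repress CDH1 and are opposed by the miR-200 family, while vimentin (VIM), fibronectin (FN1) and N-cadherin (CDH2) are the usual readouts of the mesenchymal state.

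The 10 genes did not move as 1 group. RES-A held 102-fold and RES-B 28.9-fold more VIM than LNCaP, while CDH1 and CLDN7 stayed within 2-fold of LNCaP in both lines. FN1 and ESRP1 were lower in both lines, TWIST1 was close to absent in RES-A and had no UMI in RES-B, and CDH2, ZEB1, ZEB2 and SNAI2 had at most 16 UMIs in any library. After 48 hours of enzalutamide none of the 6 genes with enough counts had moved by 2-fold, where 1.62% of all genes with enough counts had.

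VIM and FN1, the mesenchymal genes whose levels went in opposite directions in the resistant lines, are shown by the 250 bases before their RefSeq starts (GRCh38.p14, 5′ to 3′ on the strand of the gene). VIM lay on the plus strand at chr10:17227991-17228240 and FN1 on the minus strand at chr2:215436069-215436318. Capitals mark the GC box GGGCGG and the cyclic AMP response element TGACGTCA.
VIM: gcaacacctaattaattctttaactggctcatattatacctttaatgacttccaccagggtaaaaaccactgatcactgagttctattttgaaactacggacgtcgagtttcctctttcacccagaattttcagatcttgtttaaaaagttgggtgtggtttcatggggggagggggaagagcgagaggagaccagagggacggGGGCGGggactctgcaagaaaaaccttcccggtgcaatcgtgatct
FN1: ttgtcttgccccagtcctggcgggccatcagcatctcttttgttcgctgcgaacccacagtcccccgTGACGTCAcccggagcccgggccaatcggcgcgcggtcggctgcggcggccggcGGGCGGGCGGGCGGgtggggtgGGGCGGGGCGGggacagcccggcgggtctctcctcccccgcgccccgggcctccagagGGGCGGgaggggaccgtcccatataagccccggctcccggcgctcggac
VIM held 1 GC box, starting 46 bases before the start. FN1 held 6, some of them overlapping, and 1 TGACGTCA starting 183 bases before its start. Of all 35116 promoter windows of this length, 42.6% held GGGCGG or its complement CCGCCC and 1.65% held TGACGTCA. The E-box that ZEB and SNAI factors bind, CACCTG or CAGGTG on either strand, was in 17.5% of all windows, in neither of these windows, in none of the windows of CDH2 and ZEB2, in 2 of 7 windows of ZEB1 and in 1 of 2 windows of CLDN7. Such a match describes letters only. CDH1, ESRP1, SNAI2 and TWIST1 had 0 windows in this collection, so their promoters were not searched.

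The cells kept numbered 1782 for LNCaP, 4315 for LNCaP-ENZ48, 4569 for RES-A and 4061 for RES-B, together 14727 of 17233 barcodes. The libraries held 50208831 to 60838227 UMIs each, but LNCaP had a median of 27080 UMIs per cell against 12138 to 13676 in the others. Levels are therefore given as CPM (UMIs scaled to a library total of 1000000), and shares of positive cells were taken after each cell was thinned to 5000 UMIs, a depth that every kept cell reached. Pairs of libraries shared 2 to 12 barcodes. All 8 prostate luminal markers had UMIs in each library, led by KRT18 and, in LNCaP, KLK3, but KLK2 and KLK3 were close to absent in RES-A, with 5 and 2 UMIs. Of the markers of other cell types, KRT5, KRT15 and TP63 (basal), COL1A2 (fibroblast), CDH5 and CLDN5 (endothelium) and PTPRC, CD3E and MS4A1 (leukocytes) were at 0 in all 4 libraries. The basal markers summed to at most 0.299 CPM, all of it KRT14. The fibroblast markers, mostly COL1A1, summed to 2.06 to 3.74 CPM and were lowest in RES-A, where VIM was highest, although PDGFRB among them was highest there (26 UMIs against 1 to 5). The endothelial markers, mostly VWF, summed to 0.115 to 1.04 CPM. The immune markers, mostly CD68, were highest in RES-A (1.19 CPM against 0.323 to 0.444 CPM), and their part in the VIM level was not tested.

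**Figure D1:**
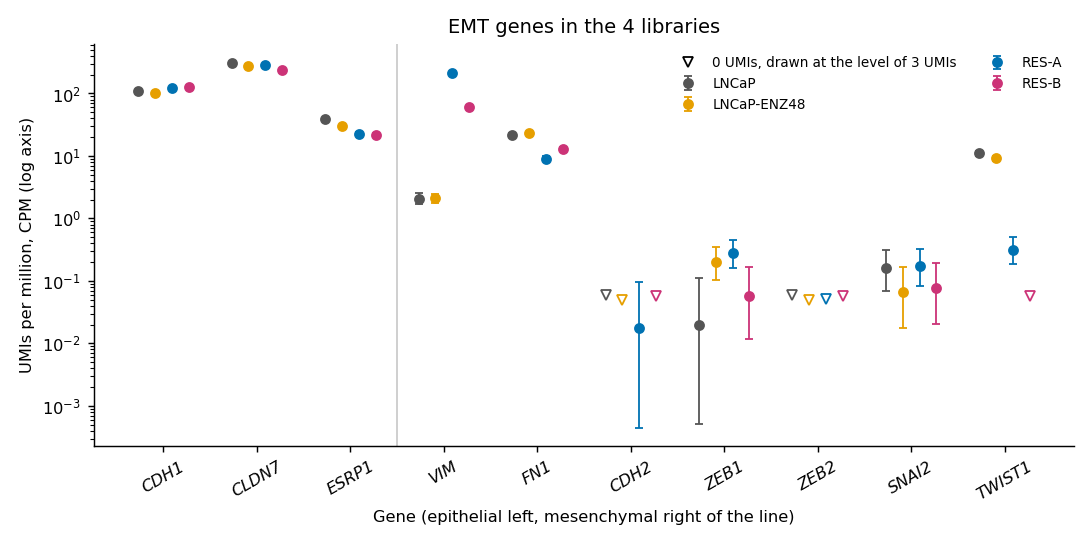
Level of each gene in the 4 libraries in CPM on a log axis, with 95% Poisson intervals (counting error only); open triangles mark genes with 0 UMIs, drawn at the level of 3 UMIs. VIM stands at about 2 CPM in LNCaP and LNCaP-ENZ48 and at 211 and 59.9 CPM in RES-A and RES-B, while CDH1 and CLDN7 hardly move and TWIST1 goes the other way.

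To determine the early response to the drug, LNCaP-ENZ48 was compared with LNCaP. A gene was measured when it had at least 100 UMIs over both libraries, which 6 of the 10 genes had (CDH1, CLDN7, ESRP1, VIM, FN1 and TWIST1). Of these, 0 were past 2-fold (a log2 ratio of at least 1 or at most -1), against 1.62% of all 12528 measured genes. VIM was at 2.07 CPM (95% interval 1.69 to 2.51) with vehicle and 2.09 CPM (1.74 to 2.48) with the drug, a log2 ratio of 0.01 with an interval of -0.37 to 0.40. The interval leaves out a VIM difference of 1.5-fold in either direction for these libraries, but that of counts thinned to equal cells does not (log2 ratio -0.14, -0.84 to 0.59). The ratio farthest from 0 belonged to ESRP1, which went from 39.4 to 30.2 CPM (log2 ratio -0.38, -0.48 to -0.29), though not in cells with no UMI of 7 cell cycle genes (-0.02). TWIST1 (-0.27), CLDN7 (-0.16) and CDH1 (-0.12) were also lower, in a comparison where the median of all measured genes was -0.08. With edgeR's TMM scaling that median was 0.00 and the share of higher genes among those past 2-fold went from 33.0% to 45.2%, so ratios of this size depend in part on the scaling.

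To compare stable resistance with the parental line, RES-A and RES-B were each set against LNCaP. In RES-A, 3 of the 6 measured genes were past 2-fold, VIM higher and FN1 and TWIST1 lower, where 15.2% of all measured genes were (8.53% higher and 6.7% lower). In RES-B 2 of 6 were, VIM higher and TWIST1 lower, beside 13.3% of all measured genes (8.06% higher and 5.22% lower). Both comparisons used the same LNCaP library, so its own counts enter each of them. The median log2 ratio of all measured genes was 0.03 (RES-A) and 0.10 (RES-B), and with TMM scaling -0.01 and -0.0047, so ratios in RES-B were a little lower under that scaling.

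Among the epithelial genes, CDH1 (E-cadherin, chromosome 16, 68737292 to 68835537, plus strand) stood at 111 CPM in the LNCaP library, 102 CPM after 48 hours, and 123 CPM and 129 CPM in RES-A and RES-B. It was highest in the resistant lines, where the log2 ratios to LNCaP were 0.14 (0.09 to 0.19) and 0.21 (0.16 to 0.27). The share of cells with a CDH1 UMI at equal depth was 42.3% for LNCaP, 39.7% for LNCaP-ENZ48, 44.1% for RES-A and 47.4% for RES-B. These shares were close to those that an equal level in every cell would give (43.1%, 40.8%, 45.2% and 47.9%).

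CLDN7 (claudin 7, a tight junction protein; chromosome 17, 7259903 to 7263983, minus strand) was at 311 CPM in LNCaP, 277 CPM in LNCaP-ENZ48, and 288 CPM and 233 CPM in RES-A and RES-B. It was lower in RES-B than elsewhere, with a log2 ratio to LNCaP of -0.41 (-0.45 to -0.38), and between 66.4% and 75.9% of thinned cells held a UMI in every library. Part of the ELP5 gene lies on the other strand of the CLDN7 locus.

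ESRP1, the splicing regulator (chromosome 8, 94641074 to 94707466, plus strand), was at 39.4 CPM in the LNCaP library, 30.2 CPM after 48 hours, and 22.6 CPM and 22.0 CPM in RES-A and RES-B. It was the epithelial gene that differed most from LNCaP, with log2 ratios of -0.81 (-0.91 to -0.70) in RES-A and -0.85 (-0.95 to -0.74) in RES-B, short of 2-fold. With TMM or DESeq2 scaling the RES-B ratio was -0.95 (-1.06 to -0.85), with an interval that reached past 2-fold. The share of positive cells went from 17.5% in LNCaP to 13.3%, 10.8% and 9.83% in the same order. Cells with no UMI of 7 cell cycle genes made up 54.4% of LNCaP and 63.8% of LNCaP-ENZ48 but 33.2% of RES-A and 48.4% of RES-B. Within such cells the ESRP1 log2 ratios to LNCaP were -0.45 (RES-A), -0.69 (RES-B) and, after 48 hours, -0.02 (-0.15 to 0.11), so that the lower level in LNCaP-ENZ48 was not seen in them. Between RES-B and RES-A the log2 ratio was -0.04 (-0.15 to 0.08) over all kept cells, but -0.24 (-0.43 to -0.04) in cells with no cell cycle UMI and -0.12 (-0.23 to -0.0010) with DESeq2 size factors.

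**Figure D2:**
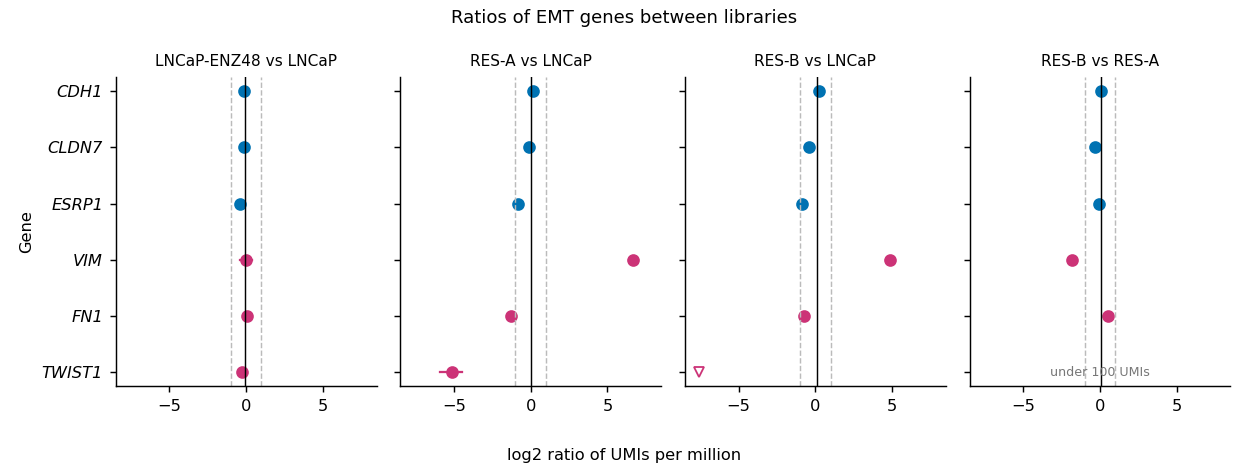
log2 ratios of CPM for the 6 measured genes in the 4 comparisons, epithelial genes in blue and mesenchymal genes in pink, with 95% counting intervals; dashed lines mark 2-fold, the solid line the median of all measured genes, and the open triangle TWIST1 in RES-B, with 0 UMIs set to 3. VIM lies at 6.67 and 4.85 in the resistant lines, TWIST1 at -5.14 in RES-A, and every epithelial gene inside 2-fold.

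Among the mesenchymal genes, VIM (vimentin, the intermediate filament of mesenchymal cells; chromosome 10, 17228241 to 17237593, plus strand) had 104 UMIs for LNCaP, 127 for LNCaP-ENZ48, 12098 for RES-A and 3148 for RES-B. As levels these were 2.07, 2.09, 211 and 59.9 CPM. Both resistant libraries stood far above both sensitive ones, with log2 ratios to LNCaP of 6.67 (6.39 to 6.96) in RES-A and 4.85 (4.57 to 5.15) in RES-B. These values exceeded those of 99.8% and 99.5% of all measured genes. RES-B held 3.52-fold less VIM than RES-A (log2 ratio -1.82, -1.87 to -1.76). The antisense gene VIM-AS1 overlaps the VIM locus and had 6, 11, 122 and 97 UMIs in the 4 libraries. Leaving out the 5% of cells with the most UMIs gave log2 ratios of 6.67 and 4.88, and keeping every barcode gave 6.74 and 4.90. Weighing each cell equally gave 6.24 and 4.55.

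The genes around VIM did not share the size of this difference. The 50 measured neighbours of VIM, 25 on each side, had median log2 ratios of 0.30 (RES-A) and 0.27 (RES-B), which lay 0.29 and 0.15 above the median of all protein-coding genes. For the 50 neighbours of TWIST1 the medians were -0.10 and -0.08, differences of -0.12 and -0.20 from all protein-coding genes.

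FN1 (fibronectin, a matrix glycoprotein; chromosome 2, 215360440 to 215436073, minus strand) differed in the direction opposite to VIM. It was at 21.9 CPM in LNCaP, 23.2 CPM in LNCaP-ENZ48, and 9.02 CPM and 13.0 CPM in RES-A and RES-B. Both resistant libraries were below both sensitive ones, with log2 ratios to LNCaP of -1.28 (-1.43 to -1.13) in RES-A and -0.75 (-0.89 to -0.61) in RES-B. The share of cells with an FN1 UMI was 9.93%, 10.1%, 4.64% and 5.76% in the same order. A lower level can come from fewer positive cells or from less RNA in each, which shares at so low a count do not separate. In RES-B, FN1 was higher than in RES-A (log2 ratio 0.53, 0.36 to 0.70), again in the direction opposite to VIM.

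CDH2 (N-cadherin, the cadherin that mesenchymal cells carry in place of E-cadherin; chromosome 18, 27932879 to 28177946, minus strand) had 0 UMIs in LNCaP, LNCaP-ENZ48 and RES-B and 1 UMI in RES-A. It was thus not detected in 3 of the 4 libraries, and 0 of 4061 RES-B cells allows a share of cells with a UMI of up to 0.0739% (3 cells).

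Of the transcription factors, TWIST1, a repressor of CDH1 (chromosome 7, 19020991 to 19117636, minus strand), had 554 UMIs in the LNCaP library, 558 after 48 hours, and 18 and 0 in RES-A and RES-B. The levels were 11.03, 9.17 and 0.314 CPM, and in RES-B below the 0.0571 CPM that 3 UMIs would give. RES-A was 35.1-fold lower than LNCaP (log2 ratio -5.14, -5.90 to -4.46), and RES-B was at least 193-fold lower, taking 3 UMIs in that library as the limit, while the counting interval of that log2 ratio ends at -7.29. A TWIST1 UMI was found in 4.43% of LNCaP cells and 4.15% of LNCaP-ENZ48 cells after thinning, but in 8 of 4569 RES-A cells and in 0 of 4061 RES-B cells.

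ZEB1 (chromosome 10, 31318495 to 31529814, plus strand), a repressor of epithelial genes, had 1 UMI for LNCaP, 12 for LNCaP-ENZ48, 16 for RES-A and 3 for RES-B. The ratio to LNCaP rests on 1 UMI: its log2 value was 3.31 (0.55 to 8.73) in LNCaP-ENZ48, 3.81 (1.12 to 9.20) in RES-A and 1.52 (-2.12 to 7.23) in RES-B. ZEB1 UMIs reached 0.279 CPM at most and lay in 10 of 4569 thinned cells of RES-A. Before thinning, the 16 UMIs of RES-A lay in 16 cells, but the 12 of LNCaP-ENZ48 in 5 of 4315 cells. The counting interval does not allow for UMIs that share a cell. The ratios have wide intervals at this depth, and the gene was under the minimum for measured genes in each comparison.

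ZEB2 (chromosome 2, 144364364 to 144521057, minus strand), the paralog of ZEB1, had 0 UMIs in all 4 libraries, as had its antisense gene ZEB2-AS1. SNAI2 (Slug; chromosome 8, 48917598 to 48921740, minus strand) had 8, 4, 10 and 4 UMIs, and each of its ratios had an interval that spanned no difference. Neither factor was therefore detectable as a difference between these libraries.

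VIM was then followed from cell to cell. At 5000 UMIs per cell, 24 of 1782 LNCaP cells (1.35%, exact binomial interval 0.865% to 2.00%) and 52 of 4315 LNCaP-ENZ48 cells (1.21%, 0.901% to 1.58%) held a VIM UMI. In RES-A, 2433 of 4569 cells did (53.3%, 51.8% to 54.7%), and in RES-B 771 of 4061 (18.99%, 17.8% to 20.2%). No cell type that should lack VIM was present in the libraries, so the share that free RNA gives could not be measured from one. KLK3, an androgen-regulated gene at 718 CPM in LNCaP, came to 0.0349 CPM in RES-A.

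VIM was spread unevenly among the resistant cells. An equal level in every cell would have given a VIM UMI to 66.8% of RES-A cells and 28.9% of RES-B cells, more than were seen. The variance of VIM UMIs over their mean, which is 1 for equal cells, was 2.19 in RES-A and 2.92 in RES-B, against 1.06 and 1.05 for CDH1 and 1.19 and 1.15 for CLDN7. The 10% of cells with the most VIM held 41.9% of all VIM UMIs in RES-A and 73.6% in RES-B, while the top 10% for CLDN7 held 28.7% and 30.4%. This last measure is higher for any sparse gene, so the difference between the 2 lines includes the lower level in RES-B.

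**Figure D3:**
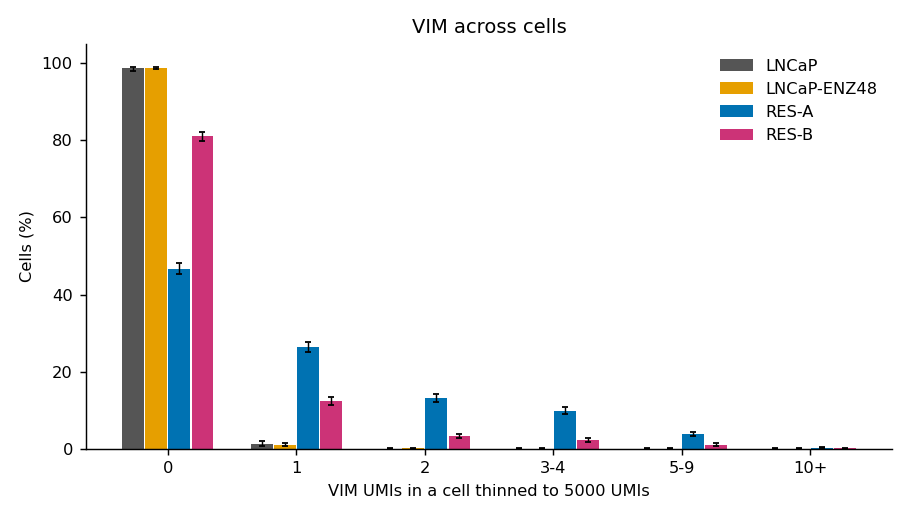
Share of cells (%) by their number of VIM UMIs after thinning to 5000 UMIs per cell, in the 4 libraries, with exact binomial 95% intervals. In RES-A 46.8% and in RES-B 81.0% of cells held none, and 3.72% and 1.03% held 5 to 9, a class with no cell in LNCaP or LNCaP-ENZ48.

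Cells with 3 or more VIM UMIs made up 13.8% of RES-A and 3.40% of RES-B but 1 cell of LNCaP and none of LNCaP-ENZ48. Without thinning, the LNCaP cell richest in VIM had 4 UMIs, the LNCaP-ENZ48 cell 5, the RES-A cell 40 and the RES-B cell 31. VIM UMIs in LNCaP lay in 83 cells, 69 of them with a single UMI.

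VIM-positive cells of both resistant lines also held epithelial transcripts. In RES-A a CDH1 UMI was found in 43.98% of the cells with a VIM UMI (42.0% to 46.0%) and in 44.1% of those without (42.0% to 46.3%). In RES-B the shares were 51.2% (47.6% to 54.8%) and 46.5% (44.8% to 48.3%), higher in the VIM-positive cells. CLDN7 was found in 69.6% (67.7% to 71.4%) of VIM-positive and 75.5% (73.6% to 77.3%) of VIM-negative RES-A cells, and in 67.6% and 66.2% of the same groups in RES-B. ESRP1 went from 10.5% of VIM-negative to 7.004% of VIM-positive cells in RES-B (9.46% to 11.6% and 5.31% to 9.04%) and differed less in RES-A (11.4% and 10.2%). Cells of a library are not replicates, so these intervals cover counting error only. VIM-positive and VIM-negative cells were alike in the share with no cell cycle UMI (33.0% and 33.4% for RES-A, 48.9% and 48.2% for RES-B). Their depth differed, as the VIM-positive cells had somewhat fewer UMIs (medians of 11930 and 12466 in RES-A, 11536 and 12455 in RES-B).

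Resistant cells were next split by the amount of VIM. From RES-A cells with 0 VIM UMIs, through those with 1 or 2, to the 632 cells with 3 or more, CDH1 stood at 120, 119 and 126 CPM and CLDN7 at 309, 276 and 227 CPM. In RES-B, with 138 cells in the top class, CDH1 was at 127, 144 and 161 CPM and CLDN7 at 233, 235 and 252 CPM. CLDN7 was thus lower in the VIM-rich cells of RES-A and not in those of RES-B. KRT18, a luminal keratin, was at 649, 640 and 634 CPM across the RES-A classes and at 913, 962 and 941 CPM across those of RES-B. KRT8, another luminal keratin, was higher in the VIM-rich cells. It was at 205, 219 and 234 CPM in RES-A and at 246, 286 and 313 CPM in RES-B. FN1 in the top class was at 13.0 CPM (9.31 to 17.6) in RES-A and 15.9 CPM (7.96 to 28.5) in RES-B, with intervals that overlapped those of cells without VIM (7.53 to 11.3 and 10.4 to 13.8).

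**Figure D4:**
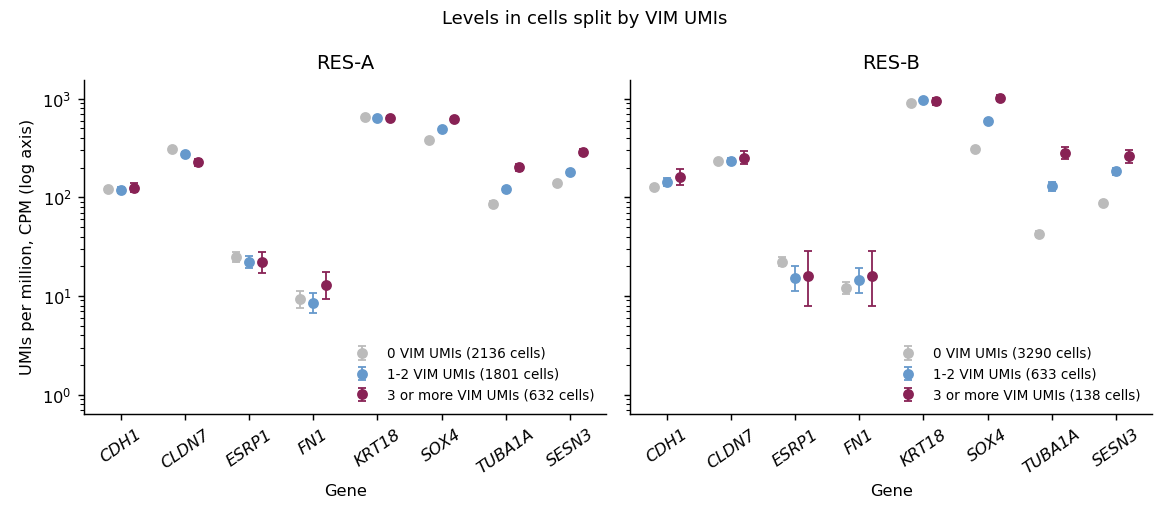
Levels in CPM (log axis, 95% Poisson intervals for counting error) of 8 genes in RES-A and RES-B cells split by their VIM UMIs at 5000 UMIs per cell. KRT18 lies level across the classes, CDH1 is level in RES-A and somewhat higher in the VIM-rich cells of RES-B, CLDN7 goes down in RES-A, and SOX4, TUBA1A and SESN3, which were picked for their correlation with VIM in these cells, go up.

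The genes most like VIM across RES-A and RES-B cells, among 4457 genes found in at least 10% of cells of both libraries, were TUBA1A (mean Pearson r 0.24), TMSB10 (0.24), SOX4 (0.22), SESN3 (0.20) and RPL13 (0.19). TUBA1A encodes an alpha tubulin, TMSB10 an actin-binding thymosin, SOX4 a transcription factor linked to the mesenchymal transition, SESN3 a stress-induced sestrin and RPL13 a ribosomal protein. These are weak correlations of sparse counts within shared libraries and are given as a description. TUBA1A was at 2.15 CPM in LNCaP, 6.07 CPM in LNCaP-ENZ48, and 109 CPM and 56.7 CPM in RES-A and RES-B, the same order of libraries as VIM. In RES-B, SOX4 went from 310 CPM in cells without VIM to 597 CPM and 1014.5 CPM in the higher classes, and in RES-A from 382 to 490 and 619 CPM.

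LNCaP and LNCaP-ENZ48 took no part in choosing these like genes. In LNCaP, before thinning, TUBA1A was at 9.49 CPM (6.02 to 14.2, from 23 UMIs) in the 83 cells with a VIM UMI. It was at 1.78 CPM (1.42 to 2.20) in the 1699 cells without one. In LNCaP-ENZ48 the values were 16.4 CPM (10.6 to 24.2) in 107 cells and 5.80 CPM (5.20 to 6.45) in 4208. TMSB10 was also higher in the VIM-positive cells, at 341 against 239 CPM in LNCaP and 363 against 249 CPM in LNCaP-ENZ48. FN1, which was lower in the resistant lines, was higher in these cells, at 32.2 CPM (25.4 to 40.2) against 21.3 CPM (20.1 to 22.7) in LNCaP and 34.8 CPM (26.1 to 45.5) against 22.9 CPM (21.7 to 24.1) in LNCaP-ENZ48. CDH1 was at 111 CPM in both groups of LNCaP cells.

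The other genes had weaker companions. For CLDN7 the closest were FTH1 (mean r 0.16 over the 4 libraries), RBCK1, EIF1, RNF187 and PHGDH. For ESRP1 they were DDIT3 (0.09 over 3 libraries), RNF187, SARS, TRIB3 and DDIT4, and for FN1, in LNCaP-ENZ48 alone, SYT4 (0.11), GAPDH, BNIP3, PGK1 and LDHA. DDIT3, TRIB3 and DDIT4 are stress-response genes, and GAPDH, PGK1 and LDHA are glycolytic enzymes. No gene reached a mean r of 0.05 with CDH1, whose closest were FTH1 (0.04), MKNK2, ALDH3A2, H1FX and CLGN. Between those of the 10 genes that were found in at least 10% of thinned cells of a library (among CDH1, CLDN7, ESRP1, VIM and FN1), r ran from -0.11 (VIM and CLDN7 in RES-A) to 0.05 (VIM and CDH1 in RES-B).

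A further 5 lists placed the 10 genes in their program. Of 25 genes of epithelial junctions and adhesion, 23 were measured. In RES-A 1 was past 2-fold higher and 3 lower, and in RES-B 1 higher and 1 lower, with medians of -0.01 and 0.10 beside 0.03 and 0.10 over all measured genes. These are 17.4% and 8.7% of the list, where 15.2% and 13.3% of all measured genes were past 2-fold. DSC2, a desmosomal cadherin, was lower in both lines, at 55.1 CPM in the LNCaP library, 28.7 CPM after 48 hours, and 5.98 CPM and 10.0 CPM in RES-A and RES-B (log2 ratios to LNCaP of -3.20 and -2.46 in the resistant lines). RES-A was also lower in TJP1 (the tight junction scaffold ZO-1, -1.91) and DSG2 (a desmoglein, -1.39) and higher in PKP2 (plakophilin 2, 1.71). After 48 hours OCLN (occludin) was past 2-fold higher (1.24) and none of the 23 was lower. This is 4.35% of the measured genes of the list, beside 1.62% of all measured genes.

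Of 19 epithelial regulators, all were measured, and 2 were past 2-fold lower in RES-A, the ETS factor EHF (-2.01) and KLF4 (-1.51), beside 6.7% of all measured genes that were lower. In RES-B the same genes were lower (-1.06 for each), and 3 were higher: MIR200CHG (1.76), OVOL1 (1.44) and PRSS8 (1.03, but 0.92 with TMM or DESeq2 scaling). These 5 are 26.3% of the list, beside 13.3% of all measured genes. MIR200CHG is the host transcript of a miR-200 cluster and stood at 4.18 CPM for LNCaP, 6.26 CPM for LNCaP-ENZ48, 6.42 CPM for RES-A and 14.2 CPM for RES-B. The mature miRNAs were not measured. KLF4 was also the single gene of the list past 2-fold after 48 hours (-1.11), 5.26% of the list beside 1.62% of all measured genes. The list's medians were -0.13 in both resistant lines.

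Of 13 other transcription factors linked to the transition, 7 were measured, and TWIST2 and PRRX1 had 0 UMIs in all 4 libraries. In RES-A 2 were past 2-fold higher, and in RES-B 1 was higher and 1 lower. These are 28.6% of the measured genes of the list in each line, beside 15.2% and 13.3% of all measured genes. After 48 hours 1 was higher, 14.3% of the list's measured genes beside 1.62% of all. SOX9 was at 1.55 CPM in LNCaP, 4.37 CPM in LNCaP-ENZ48, and 7.34 CPM and 27.2 CPM in RES-A and RES-B. It was higher than in LNCaP in each of the other libraries, with log2 ratios of 1.49 (1.12 to 1.88), 2.24 (1.89 to 2.61) and 4.13 (3.80 to 4.48). SOX4 was past 2-fold higher in RES-A (1.07) and at 0.77 in RES-B, and TCF4 was lower in RES-B (-1.21). SNAI1, the Snail factor that represses CDH1, was at 2.39 CPM in LNCaP and 1.89 to 2.13 CPM elsewhere, and none of its ratios to LNCaP was outside counting error.

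**Figure D5:**
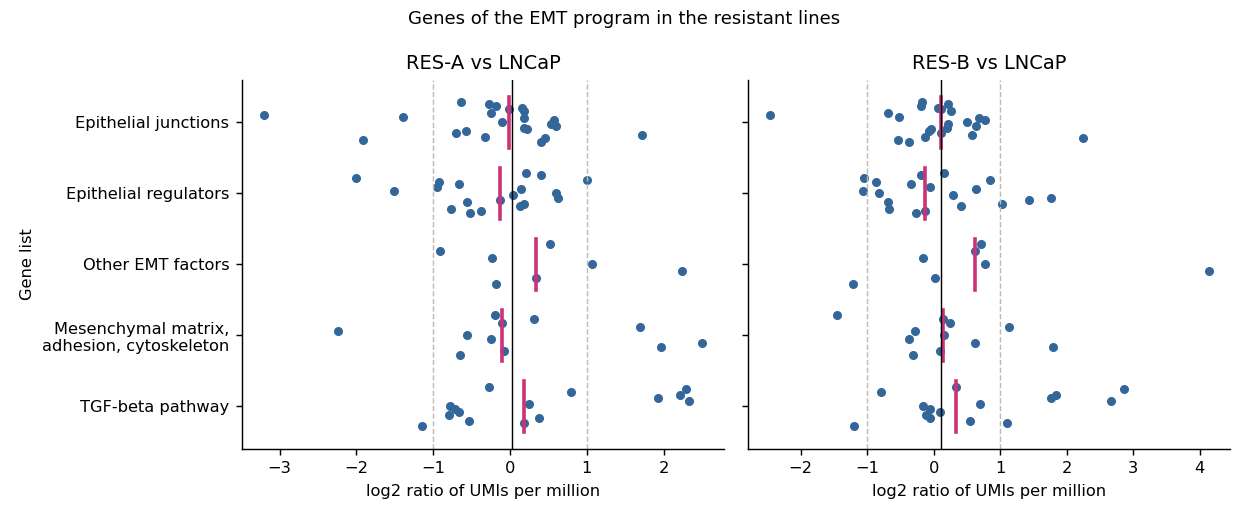
log2 ratios to LNCaP of the measured genes of 5 lists in RES-A and RES-B, 1 point per gene and a pink bar at the list's median; dashed lines mark 2-fold and the solid line the median of all measured genes. The largest list median is that of the other transcription factors (0.34 in RES-A and 0.62 in RES-B), inside 2-fold, while single genes of each list reach beyond it.

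Of 30 genes of mesenchymal matrix, adhesion and cytoskeleton, 11 were measured in each resistant comparison, so most of the list had fewer than 100 UMIs over both libraries. In RES-A 3 were past 2-fold higher: S100A4, a calcium-binding protein (2.50), the protease inhibitor SERPINE2 (1.97) and the actin bundler FSCN1 (1.69), beside 8.53% of all measured genes that were higher. ITGA5, the alpha subunit of a fibronectin receptor, was lower there (-2.24), as FN1 was. In RES-B, SERPINE2 (1.79) and FSCN1 (1.13) were higher and smooth muscle actin ACTA2 was lower (-1.45), beside 8.06% and 5.22% of all measured genes. The medians were -0.11 in RES-A and 0.14 in RES-B. CDH11, MMP2 and ITGB3 had no UMI in any library. After 48 hours none of 12 measured genes was past 2-fold, beside 1.62% of all measured genes.

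Of 20 genes of the TGF-beta pathway, which induces the transition in many epithelia, 15 were measured in the resistant comparisons. In RES-A 4 were past 2-fold higher and 1 lower, and in RES-B 5 higher and 1 lower, with medians of 0.19 and 0.34. These are 33.3% and 40% of the measured genes of the list, beside 15.2% and 13.3% of all measured genes. The pseudoreceptor BAMBI, an inhibitor of the pathway, was at 38.0 CPM in the LNCaP library, 66.2 CPM after 48 hours, and 186 CPM and 277 CPM in RES-A and RES-B (log2 ratios to LNCaP of 2.29 and 2.86 in the resistant lines). ID2 (2.21 and 1.84) and ID3 (1.92 and 1.77), inhibitors of basic helix-loop-helix factors, and LTBP1, which holds latent TGF-beta in the matrix (2.33 and 2.67), were higher in both lines. The receptor TGFBR1 was higher in RES-B (1.10, but 0.99 with TMM or DESeq2 scaling) and the co-receptor TGFBR3 lower in both (-1.15 and -1.20). The receptor TGFBR2 was at 0.228 CPM at most, with 10 UMIs for LNCaP, 2 for LNCaP-ENZ48, 1 for RES-A and 12 for RES-B. The ligands TGFB1, TGFB2 and TGFB3 stayed at or below 0.120 CPM in every library. The ligand gene INHBA had no UMI in the sensitive libraries, 11 in RES-A and 52 in RES-B (0.989 CPM). TGFBR2 and INHBA were under the minimum for measured genes, so the shares above leave them out. After 48 hours none of 14 measured genes was past 2-fold, beside 1.62% of all measured genes.

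RES-B was last compared with RES-A. Of the 5 genes measured in this pair, 1 was past 2-fold, VIM, which was lower in RES-B, beside 9.64% of all measured genes (5.27% higher and 4.37% lower). CDH1 (0.07) and ESRP1 (-0.04) differed little, CDH1 with a sign that turned with the scaling (0.00 with TMM and -0.01 with DESeq2 size factors), and CLDN7 was lower in RES-B (-0.30, -0.34 to -0.27). Epithelial genes that RES-B held at more than 2-fold the RES-A level included TJP1 (1.37), OVOL1 (1.56) and MIR200CHG (1.14), and those it held at less were PKP2 (-1.13) and KLF5 (-1.41). Among mesenchymal genes S100A4 (-1.88) and ACTA2 (-1.26) were lower and ITGA5 (1.96) higher, and among the factors SOX9 (1.89) was higher and TCF4 (-1.03) lower. In the TGF-beta pathway SMAD7 was higher (1.09) and ID1 lower (-1.59).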

How the data were processed

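Human LNCaP cells, given vehicle, given enzalutamide or resistant (1 library per group), were profiled by 10x single-cell RNA sequencing. The deposited files hold UMI counts per gene and barcode, which the authors made with Cell Ranger 3.0.2 on GRCh38 per the labels. Barcodes were kept within the limits on genes, UMIs and mitochondrial share that the study states per library (LNCaP: 3000 to 7000 genes, 16000 to 50000 UMIs, under 15% mitochondrial; the others: 1500 to 5000 genes, 5000 to 25000 UMIs, under 15%, 17% and 20%). Doublets were not called, and cells are not replicates.

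Counts were summed per library and scaled to its total. Ratios carry exact conditional binomial intervals, levels exact Poisson intervals and shares Clopper-Pearson intervals, all 95%. They cover counting error only. A gene with 0 UMIs was set to a limit of 3 UMIs per library. Shares were taken at 5000 UMIs per cell. The code was tested on simulated data. Gene positions are those of GENCODE 44 (GRCh38), and 33113 gene IDs matched it. Scaling alternatives used edgeR 4.0.16 and DESeq2 1.42.0, and no test was run with either.

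The members and lists were chosen with earlier results of these data known. From each list and comparison the 2 highest and 2 lowest ratios were to be named, and the 5 genes most correlated with each member found in 10% of thinned cells. Further genes named in counts of 5 or fewer, and the genes followed in cells split by VIM, were chosen after values were seen. Some genes counted in the lists are not reported here by name.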

Additional observations from a re-analysis of the deposited data

How the results depend on the processing

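No paired analysis was possible because each group was 1 library and the labels give no replicate numbers, and for the same reason no replicate could be left out. Counts of members past 2-fold kept within 1.5 times their value in 39 of 44 alternatives. Without a minimum on UMIs the count was 2 in LNCaP-ENZ48 against LNCaP, 4 in RES-B against LNCaP and 4 in RES-B against RES-A, since ZEB1, SNAI2 and TWIST1, with few UMIs, then entered. In RES-B against LNCaP it was 1 at a minimum of 1000 UMIs and 4 past 1.5-fold. The share of cells with a VIM UMI depends on depth: unthinned it was 4.66% in LNCaP, 2.48% in LNCaP-ENZ48, and 74.6% and 31.9% in RES-A and RES-B, and at 2000 UMIs per cell 0.393%, 0.440%, 30.5% and 9.55%. Other cell filters, the removal of the deepest cells and the limit to cells with no cell cycle UMI left the VIM shares at 1.20% to 1.44% in the sensitive and 18.9% to 53.4% in the resistant libraries. Among measured members the sign turned for CDH1 in RES-B against RES-A (-0.0061 with DESeq2 size factors) and for VIM in LNCaP-ENZ48 (-0.14 on thinned counts), both small ratios. No measured member crossed 2-fold under another cell filter, scaling or thinning. ZEB1 and SNAI2, which were under the minimum, did one or both: ZEB1 in LNCaP-ENZ48 was at -0.54 and in RES-A at 0.38 on thinned counts, and SNAI2 in LNCaP-ENZ48 at 1.05 in cells with no cell cycle UMI. With TMM or DESeq2 scaling, tried for the lists after seeing the data, PRSS8 and TGFBR1 in RES-B were no longer past 2-fold and no other list gene changed. Among all measured genes of LNCaP-ENZ48 past 2-fold, the higher share was 45.2% with TMM, 47.0% with DESeq2 size factors, 45.9% on thinned counts and 41.9% in cells with no cell cycle UMI, against 33.0%.

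With 1 library per group the spread between cultures is unknown. At this depth genes with under 100 UMIs, ZEB1 and SNAI2 among them, allow no statement on a difference.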

Other observations

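ZEB1-AS1, the antisense gene at the ZEB1 start, had 278 UMIs in LNCaP, 338 in LNCaP-ENZ48, and 263 and 250 in RES-A and RES-B (5.54, 5.56, 4.59 and 4.76 CPM), while ZEB1 itself had at most 16. The antisense gene was thus read in every library at a like level where its partner was close to absent.

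In RES-B, where KLK3 (an androgen-regulated gene) was still read at 30.5 CPM, its level differed between cells split by VIM. KLK3 was at 32.5 CPM (29.8 to 35.3) in cells without a VIM UMI, 20.5 CPM (15.8 to 26.2) in those with 1 or 2 and 7.25 CPM (2.35 to 16.9) in the 138 cells with 3 or more. In the same classes SOX4, which was picked for its correlation with VIM in these cells, was at 310, 597 and 1014.5 CPM. Before thinning, KLK3 in RES-B was at 19.4 CPM in the cells with a VIM UMI against 35.7 CPM in those without. In the sensitive libraries, also before thinning, KLK3 was higher in the cells with a VIM UMI. It was at 863 against 710 CPM in LNCaP and 170 against 93.0 CPM in LNCaP-ENZ48. Cells of a library are not replicates, and these differences were not tested.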
